A study of Mus musculus with 8 samples.

Results

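Collagens are the structural proteins of the extracellular matrix, and this account follows the genes of their chains in mouse lung. The members were all genes whose annotated symbol has the form of a collagen chain (Col, a number, a, a number) and whose probe set carries that symbol alone, each represented by its brightest probe set over the 8 arrays. This gave 44 of the 19937 genes measured. By collagen class, 11 were fibrillar, 6 basement membrane, 9 fibril-associated and 18 other.

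Lungs of untreated mice at postnatal day 21 were profiled on 8 Affymetrix arrays, which the labels call biological replicates. The 4 samples of the stabilized group came from mice with a stabilized form of beta-catenin, the protein that carries canonical Wnt signals to the nucleus and also joins cadherins at cell contacts. The 4 samples of the knockout group came from mice in which beta-catenin was knocked out. The labels record all mice as male and give the genotype as the strain. Neither the Cre driver, the altered exons, the cells that carried each allele nor the genetic background is given in the sources used here, and lungs without either allele were not analysed here. A higher value in stabilized lungs is therefore equally a lower value in knockout lungs. Values are log2 expression, so a difference of 1 is a doubling, and every difference is stabilized minus knockout.

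A collagen molecule is a triple helix of chains, either identical or encoded by different genes, and most collagen types need a fixed partnership of chains before they leave the cell. Fibrillar collagens pack into the banded fibres that give airways, vessels and alveolar walls their tensile strength. Type IV collagens form the sheet-like network of basement membranes, which in the alveolus lies between epithelium and capillary. Fibril-associated collagens decorate the fibres, and the remaining types form beaded filaments, hexagonal networks, anchoring fibrils, membrane-spanning chains and the proteoglycan-like multiplexins.

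Arrays of one group correlated at 0.993 to 0.996 over all genes and arrays of different groups at 0.987 to 0.993. The Ctnnb1 transcript, which encodes beta-catenin, differed by 0.09 ± 0.06 (SE, n = 4 per group, limma adjusted p = 0.42), and since the altered exons are not given this does not check the genotypes. Against the recorded sex, 4 of the 8 arrays, 2 in each group, had high Xist, a transcript of the inactive X chromosome of females. Results were therefore also obtained with Xist as a covariate and within the 4 arrays of either pattern. Of all genes, 1917 (9.62%) were called, 928 higher (4.65%) and 989 lower (4.96%), where a gene is called if its limma p, adjusted by Benjamini and Hochberg's method across the whole table, lies under 0.05. With each array centred on its median, 61.2% of calls were higher, against 48.4% as deposited.

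Of the 44 collagen genes, 9 were higher in stabilized lungs, 0 were lower and 35 did not pass the limma test at an adjusted p of 0.05. The 9 were Col8a1, Col18a1, Col12a1, Col5a2, Col13a1, Col4a4, Col6a2, Col6a1 and Col4a2, with differences from 0.73 down to 0.24. They made up 20.5% of the collagens, while 4.65% of all genes were called higher. At an unadjusted p under 0.05, 14 collagens were higher and 4 lower. The 4 stabilized arrays lay above all 4 knockout arrays in 11 collagens, against 9.06% of all genes, and below them in 2, against 7.82% of all genes (16.9% in both directions). The median difference was 0.0020 over the collagens and -0.0069 over all genes, and 23 collagens differed above 0 and 21 below. In bulk lung, more cells of a type and more RNA per cell cannot be told apart.

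**Figure D1:**
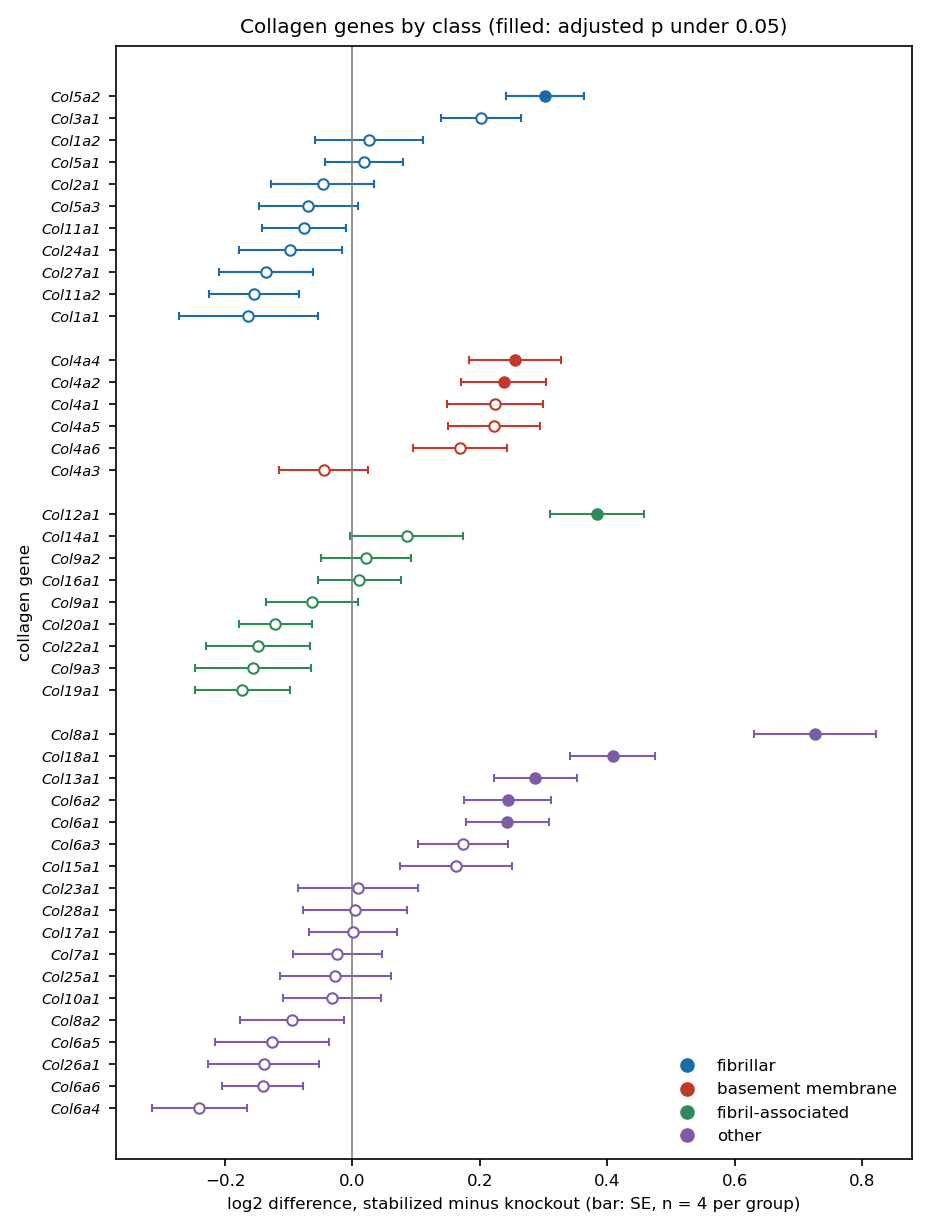
Log2 difference between stabilized and knockout lungs for each of the 44 collagen genes, grouped by class, with the standard error (n = 4 per group); filled points passed the threshold. The 9 filled points all lie right of 0, from 0.24 to 0.73, and 5 of the 6 basement membrane genes lie right of 0.

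The 9 calls differed in how often they held. Col8a1, Col18a1, Col12a1, Col5a2 and Col13a1 passed in all 9 alternative fits that kept the 8 arrays, and the first 4 of them also passed with each array left out in turn. Col13a1 lost its call without knockout replicate 3 (limma adjusted p = 0.054). Col4a2, Col4a4, Col6a1 and Col6a2 passed in 1, 2, 2 and 1 of the 8 leave-one-out fits, each of which lacked one array. Leaving out stabilized replicate 1, 3 or 4, or knockout replicate 1, gave 5 collagens called higher, and leaving out knockout replicate 3 gave 4. The share of all genes called higher in those 5 fits was 2.52%, 4.16%, 4.42%, 3.38% and 2.60%, below the 4.65% with all arrays. With the replicate number as a block 5 collagens and 4.34% of all genes were called higher. In each of the 9 genes every stabilized array lay above every knockout array, so any subset of arrays gives a difference above 0. The sign within the arrays of low Xist or of high Xist is therefore no separate check. With 2 arrays per group the calls there were 0 and 1 (Col8a1).

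**Figure D2:**
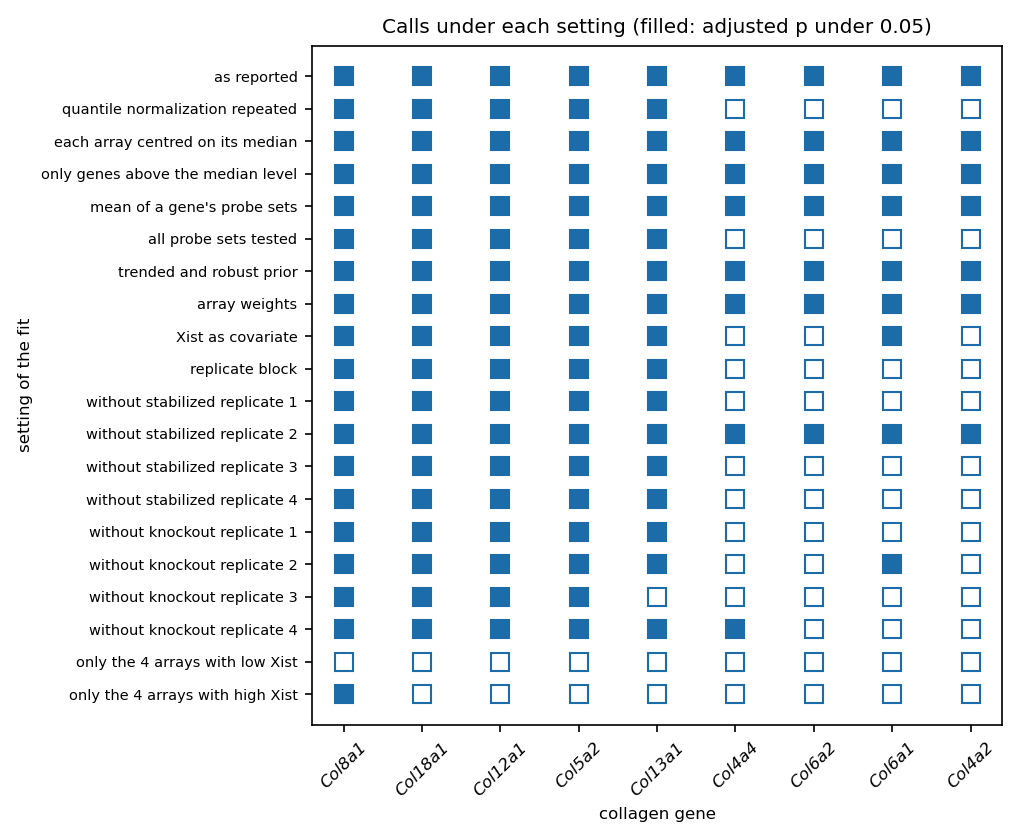
Each square is one of the 9 collagen genes under one setting of the fit, filled where its limma adjusted p was under 0.05. The 5 genes on the left are filled in every setting that kept all 8 arrays, and the 4 on the right lose their call in most settings that left out an array.

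Col8a1, which encodes a short-chain collagen of the hexagonal networks found in vessel walls and under some endothelia, showed the largest difference of any collagen. On the log2 scale the stabilized lungs measured 7.16, 6.85, 6.99 and 7.05 and the knockout lungs 6.40, 6.07, 6.21 and 6.47, each in the order of replicates 1 to 4, as in all such sentences here. The lowest stabilized array lay above the highest knockout array. The difference was 0.73 ± 0.10 (SE, n = 4 per group, limma adjusted p = 4.7e-04), or 1.65-fold. Col8a2, its partner gene, differed by -0.10 ± 0.08 (SE, limma adjusted p = 0.51), with overlapping groups. Whether the 2 genes differed from each other was not tested. Col10a1, the third short-chain collagen and a product of hypertrophic cartilage, lay below the median of all genes on all 8 arrays and differed by -0.03 ± 0.08 (SE).

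Col18a1 encodes a multiplexin of basement membranes whose C-terminal fragment is endostatin. It measured 7.72, 7.53, 7.61 and 7.67 in stabilized and 7.13, 7.24, 7.30 and 7.21 in knockout lungs, again without overlap. The difference was 0.41 ± 0.07 (SE, n = 4 per group, limma adjusted p = 0.0020), or 1.33-fold. Col15a1, the other multiplexin, differed by 0.16 ± 0.09 (SE, limma adjusted p = 0.28), and its groups overlapped.

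Col12a1 encodes a fibril-associated collagen that bridges type I fibres and their surroundings. Its values were 7.76, 8.05, 8.01 and 7.94 in stabilized and 7.55, 7.64, 7.55 and 7.50 in knockout lungs. Stabilized replicate 1 was the lowest of its group and still above every knockout array. The difference was 0.38 ± 0.07 (SE, n = 4 per group, limma adjusted p = 0.0059). None of the other 8 fibril-associated genes passed, and their differences ran from -0.17 to 0.08. The lowest belonged to Col19a1, a minor collagen of basement membrane zones, at 4.89, 4.73, 4.97 and 5.03 in stabilized and 5.08, 5.12, 4.99 and 5.12 in knockout lungs. Its groups overlapped (-0.17 ± 0.07, SE, limma adjusted p = 0.18), and it lay below the median of all genes throughout. Col14a1, which binds fibrils through decorin and marks part of the lung fibroblasts, differed by 0.08 ± 0.09 (SE). Col9a1, Col9a2 and Col9a3, the chains of cartilage type IX, differed by -0.06, 0.02 and -0.16. The class median was -0.06 over 9 genes.

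Among fibrillar collagens, Col5a2 was the member that passed. It encodes a chain of type V collagen, which sits inside type I fibrils and limits their diameter. Its values were 8.68, 8.64, 8.62 and 8.61 in stabilized and 8.30, 8.44, 8.29 and 8.32 in knockout lungs. The stabilized arrays lay within 0.07 of each other and above all knockout arrays. The difference was 0.30 ± 0.06 (SE, n = 4 per group, limma adjusted p = 0.0079). Col5a1, whose chain pairs with that of Col5a2, differed by 0.02 ± 0.06 (SE, limma adjusted p = 0.89), and the difference between the partner genes was not tested. Col3a1, the type III chain of compliant tissue and the gene beside Col5a2 on the chromosome, showed no overlap of its groups but did not pass (0.20 ± 0.06, SE, limma adjusted p = 0.067).

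The genes of type I collagen, the main fibre of the lung, did not pass the test. Col1a1 measured 11.66, 11.28, 11.56 and 11.58 in stabilized and 11.42, 11.79, 11.90 and 11.61 in knockout lungs. Its groups overlapped, and the difference was -0.16 ± 0.11 (SE, limma adjusted p = 0.39), the lowest of the class and with the largest standard error of any collagen. Col1a2 measured 11.47, 11.27, 11.42 and 11.49 against 11.19, 11.54, 11.47 and 11.35. In knockout lungs replicate 1 was lowest for both type I genes, and in stabilized lungs replicate 2 was. Col1a2 differed by 0.03 ± 0.08 (SE, limma adjusted p = 0.88). The cartilage chains Col2a1, Col11a1 and Col11a2 differed by -0.05, -0.08 and -0.15 and did not pass. Col5a3, Col24a1 and Col27a1 differed by -0.07, -0.10 and -0.14 and did not pass. The class median was -0.07 over 11 genes.

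Of the 4 classes, basement membrane collagens had the highest median difference, 0.22 over 6 genes. Of these, 2 passed as higher and 5 differed above 0. All 6 lay above the median level of all genes, against 11 of 18 in the class of other collagens. Of the 6, all but Col4a6 lay in the brightest of 4 bands of mean signal. In that band the median was 0.22 over 13 collagens of any class. Of all genes in it, 9.19% were called higher and 68.8% differed above 0. Whether the class differed from other collagens of like signal was not tested. With repeated quantile normalization the class median was 0.16, and within the arrays of low and high Xist it was 0.11 and 0.33. Col4a1 and Col4a2 encode the chains of the ubiquitous type IV network. Col4a2 measured 10.40, 10.27, 10.32 and 10.47 in stabilized and 10.06, 10.18, 10.10 and 10.17 in knockout lungs. The groups did not overlap, by a margin of less than 0.1 between the closest arrays, and the difference was 0.24 ± 0.07 (SE, limma adjusted p = 0.042). Col4a1 differed by 0.22 ± 0.08 (SE, limma adjusted p = 0.086), with stabilized replicate 2 at 10.17 just below knockout replicate 4 at 10.19.

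Col4a3, Col4a4 and Col4a5 encode the chains of the network found in the alveolar and glomerular basement membrane. Col4a4 measured 8.99, 8.81, 8.87 and 8.89 in stabilized and 8.48, 8.69, 8.64 and 8.73 in knockout lungs. All stabilized arrays lay above all knockout arrays, and the difference was 0.25 ± 0.07 (SE, limma adjusted p = 0.044). Col4a5 differed by 0.22 ± 0.07 (SE, limma adjusted p = 0.075), with stabilized replicate 1 and knockout replicate 4 both at 8.30. Col4a3 was the exception of the class, at 8.44, 8.48, 8.62 and 8.58 in stabilized and 8.51, 8.53, 8.54 and 8.71 in knockout lungs. Its groups overlapped, and the difference was -0.04 ± 0.07 (SE, limma adjusted p = 0.74). Col4a6, a chain that assembles with Col4a5 in other basement membranes, differed by 0.17 ± 0.07 (SE, limma adjusted p = 0.18).

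Col13a1, a membrane-spanning collagen of cell-matrix contacts, measured 7.85, 7.86, 7.82 and 7.92 in stabilized and 7.60, 7.66, 7.44 and 7.59 in knockout lungs. The groups did not overlap, and the difference was 0.29 ± 0.07 (SE, limma adjusted p = 0.016). The other transmembrane chains did not pass. Col17a1, of hemidesmosomes, Col23a1 and Col25a1 differed by 4.6e-04, 0.0087 and -0.03, each with a standard error of 0.07 to 0.09.

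Type VI collagen forms the beaded filaments around cells, and of its 3 classical chains Col6a1 and Col6a2 were higher in stabilized lungs while Col6a3 did not pass. Col6a1 measured 10.12, 9.99, 10.01 and 10.03 in stabilized and 9.70, 9.88, 9.76 and 9.84 in knockout lungs, a difference of 0.24 ± 0.06 (SE, limma adjusted p = 0.034). Col6a2 measured 9.67, 9.53, 9.58 and 9.58 against 9.20, 9.42, 9.38 and 9.39, a difference of 0.24 ± 0.07 (SE, limma adjusted p = 0.042). In both genes stabilized replicate 1 was the highest array and knockout replicate 1 the lowest, and the groups did not overlap. Col6a3 showed no overlap either but did not pass (0.17 ± 0.07, SE, limma adjusted p = 0.15).

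The alternative type VI chains did not pass, with differences below 0 in the probe sets used. Col6a4 measured 5.42, 5.37, 5.59 and 5.63 in stabilized and 5.77, 5.64, 5.78 and 5.78 in knockout lungs. Its stabilized arrays all lay below the knockout arrays, yet the difference of -0.24 ± 0.07 (SE, limma adjusted p = 0.063) did not pass, and it passed as lower in the fit without stabilized replicate 4 (limma adjusted p = 0.042). Col6a5 and Col6a6 differed by -0.13 ± 0.09 and -0.14 ± 0.06 (SE) and did not pass. The dimmer of the probe sets of Col6a5 differed by 0.45, opposite to the brighter one used here, so its sign depends on the probe set. Col7a1, of anchoring fibrils, Col26a1 and Col28a1 differed by -0.02, -0.14 and 0.0035 and did not pass. Over the 18 collagens outside the main classes the median was 0.0020, with 10 differences above 0 and 8 below.

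**Figure D3:**
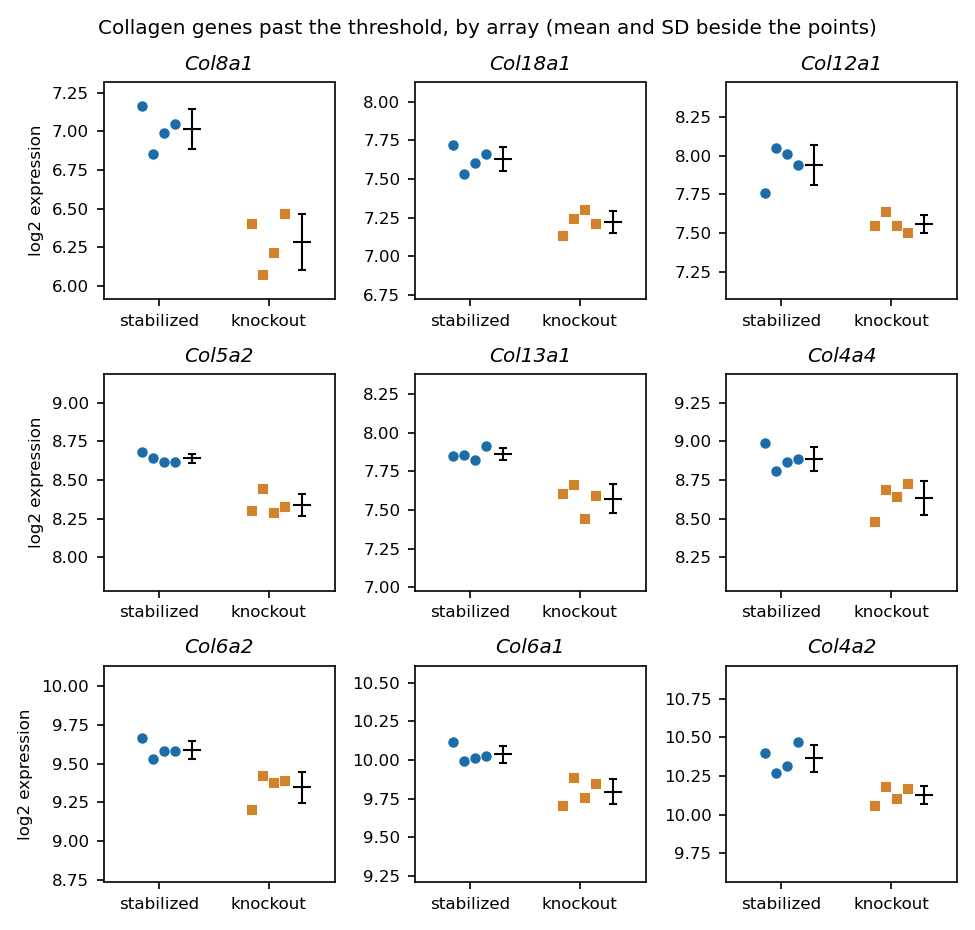
Log2 expression of the 9 collagen genes past the threshold, with 1 point per array and the mean and standard deviation of 4 arrays beside the points; every panel spans the same log2 range. The stabilized points lie above the knockout points in all 9 panels, with the widest gap in Col8a1, between 6.85 and 6.47.

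Chain genes that lie side by side on a chromosome did not all share a difference. In the RefSeq gene order (GRCm38.p6) 8 pairs of collagen genes are adjacent among protein-coding genes. Col6a1 and Col6a2 differed by 0.24 each, Col4a1 and Col4a2 by 0.22 and 0.24, and Col4a5 and Col4a6 by 0.22 and 0.17. Col4a3 and Col4a4, which lie head to head like the other type IV pairs, differed by -0.04 and 0.25. Col3a1 and Col5a2 differed by 0.20 and 0.30, and Col9a1 and Col19a1 by -0.06 and -0.17. The remaining pairs join Col6a5 to Col6a6 and to Col6a4. Differences within pairs were not tested.

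Upstream sequences are shown for the genes called higher whose 250 bases before a RefSeq start site lie outside every gene annotated in RefSeq. Transcription of these stretches was not tested. The sequences (GRCm38.p6) lie on the minus strand in all 4 cases and are written 5′ to 3′ on the gene's strand. They are shown because a beta-catenin series raises the question of binding motifs of its TCF/LEF partners. Capitals mark matches on either strand to TCF/LEF words (the word CTTTGAA, its variant CTTTGAT, the variant with CTTTGTA and that with CTTTGTT), to the TATA box (spelled TATAAA), to the box known as CCAAT and to the GC box (spelled GGGCGG). No match overlapped another in these 4 stretches.
Col8a1, chr16:57754738-57754987: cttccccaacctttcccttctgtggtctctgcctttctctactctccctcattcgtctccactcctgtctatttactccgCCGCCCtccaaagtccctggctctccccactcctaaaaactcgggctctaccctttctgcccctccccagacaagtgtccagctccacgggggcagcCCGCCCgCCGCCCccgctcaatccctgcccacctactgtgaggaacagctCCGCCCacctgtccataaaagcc
Col18a1, chr10:77166531-77166780: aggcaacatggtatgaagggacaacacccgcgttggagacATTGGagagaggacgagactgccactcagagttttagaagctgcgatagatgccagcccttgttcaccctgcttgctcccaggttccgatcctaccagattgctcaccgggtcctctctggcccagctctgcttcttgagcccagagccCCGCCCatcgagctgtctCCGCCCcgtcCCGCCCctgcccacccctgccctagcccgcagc
Col6a1, chr10:76726045-76726294: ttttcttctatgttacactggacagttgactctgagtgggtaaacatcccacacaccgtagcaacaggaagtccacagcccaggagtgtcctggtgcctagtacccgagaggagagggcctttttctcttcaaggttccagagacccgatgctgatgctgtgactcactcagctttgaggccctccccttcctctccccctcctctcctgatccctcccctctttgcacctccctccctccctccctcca
Col6a2, chr10:76623631-76623880: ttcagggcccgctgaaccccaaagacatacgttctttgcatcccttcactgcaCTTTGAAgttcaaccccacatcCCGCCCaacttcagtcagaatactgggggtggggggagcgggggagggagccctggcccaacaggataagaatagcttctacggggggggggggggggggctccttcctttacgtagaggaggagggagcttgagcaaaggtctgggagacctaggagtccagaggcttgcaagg

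The Col8a1 stretch held 4 GC boxes and the Col18a1 stretch held 3 GC boxes and 1 CCAAT box. The Col6a2 stretch held 1 GC box and 1 TCF/LEF word (CTTTGAA), whose nearest base lay 191 bases before the start, and the Col6a1 stretch held no match. RefSeq listed 38 windows for 35 of the 44 collagens, 7 of them called higher. A TCF/LEF word occurred upstream of 7 of these 35 genes (Col13a1, Col15a1, Col20a1, Col28a1, Col6a2, Col9a1 and Col9a2), 2 of them called higher. Counted by window, it occurred in 7 of the 38 and in 14.8% of all 32851 windows. A GC box occurred in 22 of the 38 windows and in 32.7% of all windows, a CCAAT box in 13 and in 33.8%, and a TATA box in 5 and in 12.4%. Such a match is a description of the letters and not a binding site.

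The position of the collagens along the signal scale of the array accompanied their differences. All genes were split by mean log2 signal into 4 bands of equal size. In the brightest band, above 7.81, the median difference was 0.07 over all genes, of which 9.19% were called higher, and 0.22 over 13 collagens, of which 5 were called higher. In the next band, from 6.42 to 7.81, the medians were 0.02 and 0.0097, with 6.40% of all genes and 4 of 18 collagens called higher. In the 2 dimmer bands the 13 collagens gave no call, and 11 of their differences were below 0, where all genes had medians of -0.05 and -0.04. The dim collagens Col19a1, Col22a1 and Col24a1, at -0.17, -0.15 and -0.10, had the sign of the median of all genes in their band, -0.05. In that band 34.7% of all genes differed above 0. Whether signal accounts for these differences was not tested. Of the 44 collagens, 12 lay below the median of all genes on all 8 arrays, and none of the 9 called genes was among them.

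**Figure D4:**
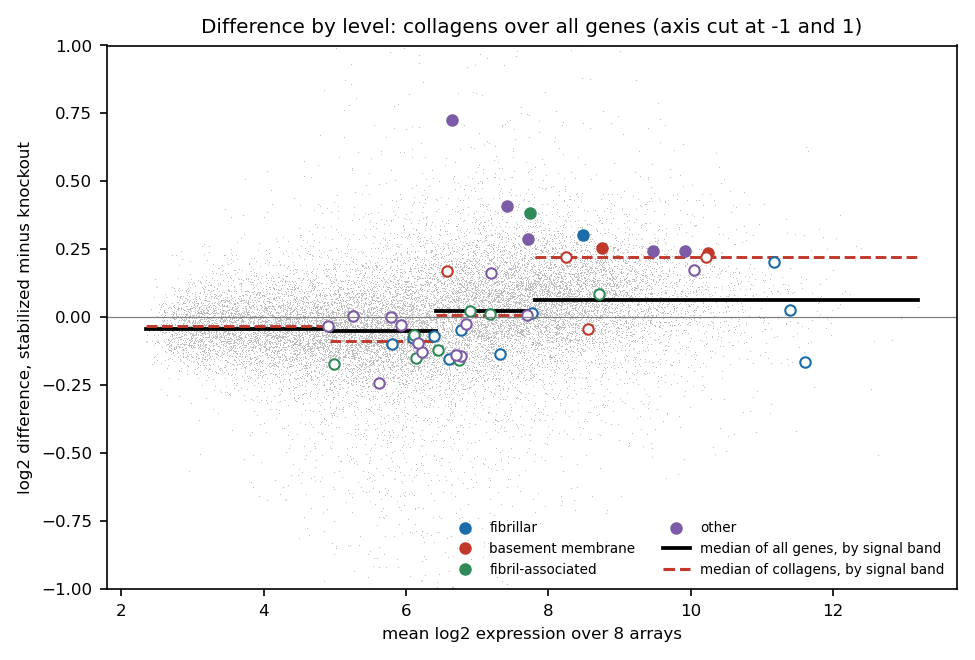
Log2 difference against mean log2 expression over 8 arrays, with all genes as grey dots and collagens as circles coloured by class, filled where called; black lines give the median of all genes and dashed red lines that of the collagens in each of 4 signal bands. In the brightest band the collagen median is 0.22 and that of all genes 0.07; 100 genes lie outside the plotted range.

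Genes that act on collagen were read from lists, by role. From here on, a gene that rose or fell was called higher or lower in stabilized than in knockout lungs. As lungs without either allele were not analysed, neither word means a change from a baseline. Beside each count stands the share of all genes, 4.65% called higher and 4.96% called lower. In the brightest signal band 9.19% of all genes were called higher and 68.8% differed above 0. Of 24 genes for the folding, hydroxylation and export of procollagen, 6 rose, 0 fell (0 at an unadjusted p under 0.05 in limma) and 18 did not pass, with a median of 0.20. Serpinh1, the collagen chaperone HSP47, measured 8.33, 7.98, 8.31 and 8.45 in stabilized and 7.57, 7.73, 7.84 and 8.04 in knockout lungs. Knockout replicate 4 lay above stabilized replicate 2, so the groups overlapped, and the difference was 0.47 ± 0.11 (SE, limma adjusted p = 0.020). P4ha1, a catalytic subunit of prolyl 4-hydroxylase, rose by 0.39 ± 0.08 (SE, limma adjusted p = 0.0091), with all stabilized arrays above all knockout arrays. Ppib, a prolyl isomerase of the procollagen complex, rose by 0.25 ± 0.06 and P3h4, a partner of the lysyl hydroxylases, by 0.31 ± 0.08 (SE). Serpinh1 and P3h4 each lost the call in 4 and Ppib in 3 of the 8 leave-one-out fits, whereas P4ha1 passed in all 8. Plod1, Plod2 and Plod3, the lysyl hydroxylases, differed by 0.21, 0.25 and 0.19 and did not pass.

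Of 13 genes for procollagen processing and crosslinking, 5 rose, 0 fell (0 at an unadjusted p under 0.05 in limma) and 8 did not pass, with a median of 0.14. Lox, the lysyl oxidase that crosslinks collagen and elastin, measured 8.43, 8.48, 8.55 and 8.43 in stabilized and 7.99, 7.84, 7.94 and 8.24 in knockout lungs. The groups were apart, and Lox rose by 0.47 ± 0.08 (SE, limma adjusted p = 0.0036). Tll1 and Bmp1, proteinases that remove the C-propeptide of procollagen, rose by 0.51 ± 0.10 and 0.31 ± 0.07 (SE). Loxl1, a lysyl oxidase mostly of elastic fibres, rose by 0.34 ± 0.08 (SE). Lox and Tll1 passed with each array left out, Bmp1 lost its call without stabilized replicate 1, and Loxl1 lost its call without stabilized replicate 1 or knockout replicate 3.

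Of 18 proteoglycans and other proteins that bind collagen fibrils, 4 rose, 0 fell (1 at an unadjusted p under 0.05 in limma) and 14 did not pass. The median of this list was 0.08. Aspn, asporin, differed most, at 7.97, 8.66, 7.88 and 7.99 in stabilized and 7.09, 7.30, 6.73 and 7.36 in knockout lungs. Stabilized replicate 2 stood above the rest, and the groups did not overlap (1.01 ± 0.17, SE, limma adjusted p = 0.0025). Fmod, fibromodulin, rose by 0.49 ± 0.08, Tgfbi by 0.40 ± 0.08 and Sparcl1 by 0.30 ± 0.07 (SE), the last losing its call in 5 of the 8 leave-one-out fits. Dcn, decorin, and Lum, lumican, differed by -0.14 and 0.26 and did not pass.

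Of 11 collagen receptors and uptake genes, 3 rose, 1 fell and 7 did not pass. At an unadjusted p under 0.05 in limma 3 were higher and 3 lower. The median was -0.0041, with 5 differences above 0 and 6 below. Itga1 and Itgb1, which encode the subunits of the integrin that binds type IV collagen, rose by 0.51 ± 0.09 and 0.30 ± 0.07 (SE), Itgb1 losing its call without knockout replicate 3. Mrc2, the uptake receptor Endo180, rose by 0.61 ± 0.10 (SE, limma adjusted p = 0.0027). Itga11, the integrin chain for fibrillar collagen, fell by 0.42 ± 0.10 (SE, limma adjusted p = 0.023) at values below the median of all genes, and lost its call in 3 of the 8 leave-one-out fits. The discoidin receptors Ddr1 and Ddr2 differed by 0.10 and -0.0041 and did not pass.

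Laminins, nidogens, perlecan and agrin share the basement membrane with type IV collagen. Of 14 such genes, 5 rose, 0 fell (0 at an unadjusted p under 0.05 in limma) and 9 did not pass, all 14 differences were above 0, and the median was 0.18. Lama5, the laminin alpha chain of the mature alveolus, measured 9.17 to 9.36 in stabilized and 8.87 to 9.02 in knockout lungs. The groups were apart, and Lama5 rose by 0.35 ± 0.07 (SE, limma adjusted p = 0.0056). Lamb3 and Lama3, chains of the epithelial laminin, rose by 0.31 ± 0.07 and 0.28 ± 0.07, and Nid2, a nidogen that links laminin to type IV collagen, by 0.28 ± 0.07 (SE). Lama3 and Nid2 lost their calls in 3 and 4 of the 8 leave-one-out fits. Of 15 regulators of collagen genes, Tgfb2 and Tgfbr1 rose by 0.34 ± 0.08 and 0.28 ± 0.07 (SE), each lost its call in 4 of those fits, 0 fell (1 at an unadjusted p under 0.05 in limma) and 13 did not pass. The median of the regulators was 0.09. Over these 6 lists 25 entries rose, against 15 after repeated quantile normalization, 13 with all probe sets tested, and 13, 16 and 14 without stabilized replicate 1, knockout replicate 1 and knockout replicate 3. The share of all genes called higher dropped too, from 4.65% to 3.85%, 2.29%, 2.52%, 3.38% and 2.60% in these fits. Leaving out replicate 1 of either group or knockout replicate 3 gave 2 biosynthesis genes that rose, and leaving out stabilized replicate 4 or knockout replicate 2 gave 3. For processing genes the count was 2 when stabilized replicate 1 was left out and 3 when knockout replicate 3 was. The laminin count was 2 without replicate 1 of either group and 3 without any other knockout array. The count of regulators was 0 without stabilized replicate 2 and 1 in 5 other leave-one-out fits.

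**Figure D5:**
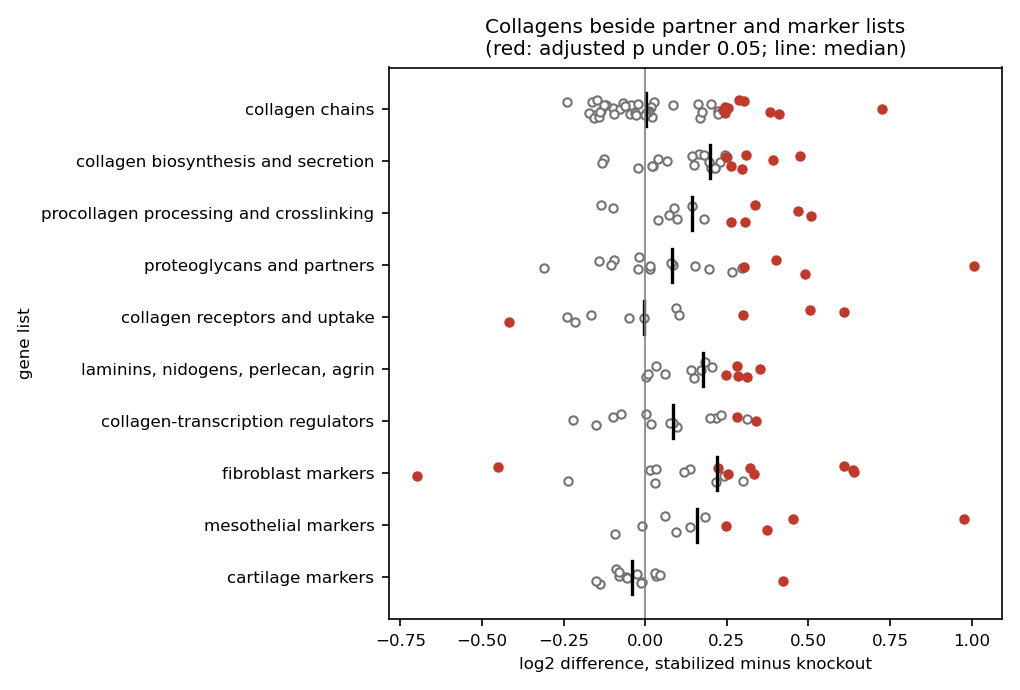
Log2 difference of each gene in the collagen family, in 6 lists of genes that act on or with collagen and in 3 lists of marker genes; red points passed the threshold and black lines are medians. The medians are 0.20 for biosynthesis and 0.18 for laminins and their partners, and 0.0020 for the collagen chains.

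Markers of cells that make collagen were read beside these values. For every marker count, here and in the next paragraph, the shares of all genes were 4.65% called higher and 4.96% called lower. In the brightest signal band 9.19% of all genes were called higher. Of 18 fibroblast markers 7 rose, 2 fell and 9 did not pass, with a median of 0.22. Limch1 lost its call in all 8 leave-one-out fits and Inmt in 5. Thy1, a surface protein of part of the fibroblasts and of T cells, had the largest difference of the list, fell by 0.70 ± 0.17 (SE, limma adjusted p = 0.020) and lost its call in 3 of those fits, without stabilized replicate 1 or 2 or knockout replicate 3. The markers' summed linear signal was 29793 to 31527 in stabilized and 24218 to 26690 in knockout lungs, and S100a4 alone lay below the median of all genes on all arrays. Wnt2, Fn1, Tcf21 and Fbln1 had the smallest p. Fn1, fibronectin, Wnt2 and Tcf21, a transcription factor of lung fibroblasts, rose by 0.61 ± 0.08, 0.64 ± 0.09 and 0.64 ± 0.11, while Fbln1, fibulin-1, fell by 0.45 ± 0.07 (SE). Of 10 mesothelial markers, those of the pleural surface, 4 rose, 0 fell (0 at an unadjusted p under 0.05 in limma) and 6 did not pass, with a summed signal of 3081 to 3207 against 2451 to 2523, and Wt1, Bnc1 and Muc16 below the median on all arrays. Upk1b, Msln, Upk3b and Bnc1 rose by 0.98 ± 0.07, 0.45 ± 0.07, 0.25 ± 0.06 and 0.37 ± 0.10 (SE). Bnc1 lost its call in 5 and Upk3b in 2 leave-one-out fits, and 2 mesothelial genes rose without knockout replicate 3 or 4. The part of these cells in the collagen differences was not tested.

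Of 14 smooth muscle and pericyte markers Rgs5, a pericyte gene, rose by 1.65 ± 0.10 (SE) and 13 did not pass. The summed signal of these 14 was 6568 to 7448 in stabilized and 6215 to 6591 in knockout lungs. Their median difference was 0.04, with 9 above 0 and 5 below. Of 12 endothelial markers 0 passed (3 higher and 0 lower at an unadjusted p under 0.05 in limma), with a summed signal of 14255 to 15007 against 13374 to 14501. Of 14 cartilage markers Matn4 rose by 0.42 ± 0.07 (SE) and 13 did not pass, and 11 of the 14, Acan, Comp, Matn1 and Cnmd among them, lay below the median of all genes on all arrays. Of 12 alveolar type 2 markers 9 rose, led by Lamp3, Egfl6, Sftpd and Abca3 (0.55 ± 0.07, 0.67 ± 0.09, 0.46 ± 0.07 and 0.34 ± 0.07, SE). Only these 4 rose without stabilized replicate 1 or without knockout replicate 2, 3 or 4, and 5 rose without stabilized replicate 2 or knockout replicate 1. Of 12 alveolar type 1 markers Sec14l3 fell by 0.35 ± 0.07 (SE) and 11 did not pass. In that list 9 differences were above 0 and 3 below, with a median of 0.07. Of 12 macrophage markers C1qa, C1qb and Mrc1 rose by 0.59 ± 0.08, 0.45 ± 0.08 and 0.43 ± 0.09 (SE), 0 fell and 9 did not pass. Of the macrophage differences 9 were above 0 and 3, those of Marco, Siglecf and Cx3cr1, below, with a median of 0.14. Of 12 airway epithelial markers 9 fell, with a summed signal of 8601 to 9406 in stabilized and 13099 to 15505 in knockout lungs. Of 11 lymphocyte markers 10 fell, with 776 to 1022 against 1955 to 2949. Of 12 heart and skeletal muscle markers 4 fell (2 without knockout replicate 3) and 1 rose, with 3669 to 4020 against 4366 to 5702. The part of these cells in the collagen differences was not tested.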

How the data were processed

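Total RNA of 8 lung samples was labelled with biotin, per the labels' protocols. The deposited values are log2 expression per probe set, made with RMA and the affy package, per the submitters' processing notes, with no version or genome build given there. By its usual definition RMA subtracts background, applies quantile normalization and summarises probes, which compresses fold changes of dim probe sets. Array medians lay between 5.97 and 6.03, and the number of arrays limits the precision.

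Symbols came from the platform annotation (21640 of 34760 probe sets with 1 symbol), and all 44 collagen symbols matched RefSeq. All 19937 genes were fitted with limma 3.58.1 (R 4.3.3, lmFit and eBayes), unfiltered and without covariates, and p-values were adjusted over all genes. The fit was tested on simulated data, with planted changes larger than the differences of all called collagens but Col8a1. The simulation therefore does not cover differences of their size. Classes and 17 lists (248 entries) described the genes; 2 entries, Mia2 and Ctage5, are symbols now given to one gene. The members, lists and Xist checks were chosen with earlier results of these data known. Named in full were called collagens and each class's extremes, plus up to 4 called genes with the smallest p per list and Lox, Serpinh1 and P4ha1. Other list genes named, all without a call, and the array values of Col1a2, Aspn and Lama5 were chosen after the values were seen. Same-numbered arrays were not treated as pairs in the main fit. Alternatives covered normalization, centring, a filter on dim genes, the use of several probe sets, the prior, array weights, Xist, the replicate block and each array left out.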

Additional observations from a re-analysis of the deposited data

Results flagged for a closer look

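Within groups of 4 arrays, 140 sets of values (the collagens and the called genes of the lists that act on collagen) were searched for an array far from the others, and 8 were found, where chance gives about 1 in 20. In knockout lungs these were replicate 4 for Col4a3 (8.71, the nearest other array at 8.54) and Col4a6 (6.62, nearest 6.45) and replicate 2 for Col6a4 (5.64, nearest 5.77). In stabilized lungs replicate 1 was low for Col6a6 (6.64, nearest 6.72). Stabilized replicate 2 was high for Aspn (8.66, nearest 7.99) and low for Itga11 (4.94, nearest 5.28), Lama5 (9.17, nearest 9.35) and Lamb3 (8.50, nearest 8.63).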

How the results depend on the processing

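Collagens called higher numbered 9 as reported. Each count is followed by the share of all genes called higher in the same fit, 4.65% as reported. The count was 5 after repeated quantile normalization (3.85%), with all probe sets tested (2.29%) and with the replicate block (4.34%), 6 with Xist as covariate (4.14%), 9 with the mean of a gene's probe sets (4.68%), 10 with array weights (5.64%), and 12 with centring (6.77%) or a trended prior (5.92%). With only genes above the median level it was 11 of the 31 collagens left (11.2%). It was 4 to 10 with an array left out (2.52% to 4.42%), and the count called lower was 0 to 1 there and 0 in the other alternatives. The 9 calls were kept, and Col3a1, Col4a1 and Col4a5 added, with centring and the trended prior. The sample titles number the replicates without saying whether the numbers pair the arrays. Deviations of same-numbered arrays correlated at -0.0051 to 0.084, and 2 of 8 arrays correlated best with their own number. With so few arrays these values cannot exclude a pairing. Within the arrays of low Xist, chosen after seeing the data like those of high Xist, 0 collagens were called (limma, 4 higher and 2 lower at an unadjusted p under 0.05; 0.612% of all genes), and within those of high Xist 1 (1.09%). Pathway genes called higher numbered 25, against 15, 13, 0 and 7 with repeated quantile normalization, all probe sets, low Xist and high Xist, and 13 to 22 with an array left out.

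Class medians moved as follows. Fibril-associated collagens were at -0.0076 after repeated quantile normalization, 0.016 over the 6 of 9 above the median level and 0.015 in high Xist. Other collagens were at 0.17 over the 11 of 18 above the median level, -0.094 in low Xist and 0.11 in high Xist, and basement membrane collagens at 0.11 and 0.33. Differences that changed sign all belonged to collagens that did not pass. With repeated quantile normalization these were Col10a1 0.033, Col1a2 -0.013, Col23a1 -0.025, Col25a1 0.044 and Col5a1 -0.023, with centring Col10a1 4.0e-04, Col25a1 0.0055 and Col7a1 0.0087, with the mean of probe sets Col6a5 0.16, and with array weights Col10a1 0.013, Col23a1 -0.0058, Col28a1 -0.011 and Col9a2 -0.019. In low Xist they were Col16a1 -0.041, Col17a1 -0.078, Col1a2 -0.10, Col23a1 -0.12, Col28a1 -0.16 and Col5a1 -0.0067, and in high Xist Col10a1 0.078, Col11a1 0.028, Col25a1 0.056, Col6a5 0.025, Col7a1 0.019, Col8a2 0.057 and Col9a1 0.032. With an array left out the ranges were Col10a1 -0.068 to 0.027, Col16a1 -0.031 to 0.040, Col17a1 -0.042 to 0.027, Col1a2 -0.039 to 0.077, Col23a1 -0.068 to 0.068, Col25a1 -0.083 to 0.048, Col28a1 -0.040 to 0.079, Col4a3 -0.075 to 1.2e-04, Col5a1 -0.0090 to 0.043, Col7a1 -0.056 to 0.025 and Col9a2 -0.013 to 0.070. The cause of these changes was not tested. With 4 arrays a group, calls near the threshold are limited by the number of arrays.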
